A study of Mus musculus with 6 samples.

Results

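Metal handling was described in RAW264.7 cells through 31 genes: the metallothioneins and the transcription factor that senses zinc, the zinc exporters and importers, the copper carriers and chaperones, and the genes that hand copper to cytochrome c oxidase. They were chosen by name from the deposited gene count table, where all 31 of 31 were found among 55401 genes. RAW264.7 is an established mouse macrophage-like line, labelled wild type, and both groups are that same line, so the data describe 1 line and no tissue macrophage. Control cells were given phosphate-buffered saline (PBS), and treated cells molybdenum disulfide (MoS2), a layered metal sulfide, at 6.25 µg/ml. Each group had 3 RNA sequencing libraries. The sources used here do not give the treatment time, nor whether replicates came from separate cultures, and so the p-values reflect the spread between these libraries alone, which may be technical. The comparison asks how gene expression of the line differed between MoS2 and PBS, in a series whose title names ferroptosis, a form of cell death driven by iron.

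Metallothioneins are small proteins rich in cysteine that hold zinc and copper ions in the cytosol. When zinc is plentiful, the zinc finger protein MTF1 binds short metal response elements in the promoters of metallothionein genes and of the zinc exporter gene Slc30a1 and raises their transcription, and it is known to repress the importer gene Slc39a10. SLC30 proteins (ZnT) move zinc out of the cytosol, and SLC39 proteins (ZIP) move it in. Copper enters mainly through SLC31A1 and is passed by small chaperones to the pump ATP7A, to superoxide dismutase and to the mitochondrion. Macrophages are known to withhold zinc from microbes and to load copper into phagosomes.

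The promoters of Mt1, Mt2, Slc30a1 and Slc39a10 are shown because MTF1 is known to act on these genes. The rule for sequences took metallothionein genes and the listed genes with the largest absolute called change. By that rule Slc39a10 qualified, as did Mt3, Cox19, Atox1 and Cutc, whose promoters are not printed. Slc30a1 did not qualify and was added for its link to MTF1 after its values were seen. The printed promoters hold the 250 bases before the RefSeq start (GRCm38.p6), and Mt1 also the first 30 bases after it. Capitals mark each match to the core of the metal response element, TGCACNC or TGCGCNC on either strand, where matches on opposite strands may overlap.
Mt1, chr8:94178839-94179088, plus strand: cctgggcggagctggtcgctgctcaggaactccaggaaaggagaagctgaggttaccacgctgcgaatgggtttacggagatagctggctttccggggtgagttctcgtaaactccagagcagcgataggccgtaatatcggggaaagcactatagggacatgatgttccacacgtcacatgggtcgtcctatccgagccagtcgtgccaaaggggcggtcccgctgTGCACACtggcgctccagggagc
Mt1 after the start, chr8:94179089-94179118, plus strand: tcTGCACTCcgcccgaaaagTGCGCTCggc
Mt2, chr8:94172368-94172617, plus strand: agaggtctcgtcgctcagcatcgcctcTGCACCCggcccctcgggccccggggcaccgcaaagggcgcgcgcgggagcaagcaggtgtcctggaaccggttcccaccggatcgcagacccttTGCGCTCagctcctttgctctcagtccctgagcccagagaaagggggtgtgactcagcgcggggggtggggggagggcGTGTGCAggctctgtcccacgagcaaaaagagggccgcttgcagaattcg
Slc30a1, chr1:191906531-191906780, plus strand: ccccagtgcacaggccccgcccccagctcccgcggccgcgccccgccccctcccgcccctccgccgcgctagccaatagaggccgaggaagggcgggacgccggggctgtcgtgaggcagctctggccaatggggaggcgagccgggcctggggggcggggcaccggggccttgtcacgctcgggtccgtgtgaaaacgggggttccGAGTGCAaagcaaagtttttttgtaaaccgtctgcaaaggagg
Slc39a10, chr1:46853619-46853868, minus strand: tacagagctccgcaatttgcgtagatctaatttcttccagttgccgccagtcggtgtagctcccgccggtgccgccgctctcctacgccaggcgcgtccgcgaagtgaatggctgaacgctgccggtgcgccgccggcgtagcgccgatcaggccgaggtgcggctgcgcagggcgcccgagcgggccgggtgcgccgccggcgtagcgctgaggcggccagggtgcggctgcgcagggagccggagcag

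Within the whole 300-base window, from 250 bases before to 50 after the start, Mt1 had 3 matches, Mt2 had 4 and Slc30a1 had 2, of which the last match of Mt2 and of Slc30a1 lies after the start and is not printed. Of 32851 mouse promoters of that length, 25.7% had at least 1 match, 7.11% at least 2, 1.97% at least 3 and 0.517% at least 4. Neither listed start of the importer gene Slc39a10 (46853618 and 46925776) had a match in its window. The gene as counted, on the minus strand, begins at 46892852, which lies in neither window and was not searched. RefSeq promoters were found for 27 of the 31 genes, and 14 of their 30 promoters, in 13 genes, had a match. Mt3 and Slc30a5 had 1, Atp7a had 2, Slc30a4 and Cutc had 3, and in Cutc the last pair overlaps. Atox1, Cox19, Slc39a1, Sco1 and Mtf1 had none in this window. Bases outside these windows were not searched, so the numbers of matches, those of Mt1 included, are not counts for a whole promoter. A match is a run of letters, and binding was not measured here.

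Libraries held from 17008020 to 17695883 counts in the PBS group and from 15767618 to 18412762 in the MoS2 group. The 8 macrophage markers examined were all detected, while none of 18 markers of epithelial, fibroblast, T, B and endothelial cells passed the low-count filter (summed level 1.04 to 1.82 CPM with PBS and 1.30 to 1.68 CPM with MoS2, where CPM is a count relative to the scaled library total). Of these 18, 6 had no count at all, among them Krt18, Cdh1, Cd3d and Cd8a. The macrophage markers summed to 7374 to 7539 CPM with PBS and 5000 to 5241 CPM with MoS2. Of the 8, 2 were called higher and 3 lower, beside 38.3% and 42.4% of all tested genes. Lyz2 fell from 3624 to 1976 CPM, Csf1r from 1909 to 513 CPM and Fcgr1 from 46.4 to 22.3 CPM. Cd68 rose from 614 to 1304 CPM and Itgam from 44.2 to 123 CPM, while Adgre1, Ptprc and Cd14 were not called. The sum thus does not stand for each marker. The 10 most abundant genes took 5.25% to 5.64% of counts with PBS and 18.9% to 19.6% with MoS2. Libraries were scaled with TMM factors, which centre the bulk of genes (1.31 in every PBS library, 0.743 to 0.783 with MoS2). Scaling by library totals alone shifted all log2 fold changes by a median of -0.77, and short genes were higher with MoS2 (median log2 fold change 0.74 in the shortest of 5 length classes and -0.33 in the longest). Each change is therefore given with TMM, and the text says where using library totals, or removing the trend with length and GC, turned its direction. Of the macrophage markers, Adgre1, Ptprc and Cd14, not called with TMM, were called lower with library totals. Without the length and GC trend, Ptprc was called higher and Cd14 lower. In bulk samples such as these, fewer cells of a type and less RNA per cell cannot be told apart.

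Of the 31 genes, 29 passed the filter and were tested with edgeR's quasi-likelihood test. At a Benjamini-Hochberg adjusted p under 0.05 over all genes, 12 were higher and 9 lower with MoS2 and 8 were not called. Among all 12972 genes tested, 38.3% were called higher and 42.4% lower, 80.7% in either direction, so a call alone does not set these genes apart. Their median log2 fold change was 0.047, beside -0.078 over all tested genes. A called change of at least 1 on the log2 scale was seen for 4 of the 29 (Cox19, Atox1, Cutc and Slc39a10), and for 43.2% of all tested genes. The libraries of the groups did not overlap for 20 of the 29, against 81.9% of all tested genes. With library totals the split was 3 higher and 20 lower, against a background of 18.0% and 67.7% (85.7% in either direction). Without the length and GC trend it was 12 higher and 8 lower, against 40.2% and 40.1% (80.3% in either direction). Called higher under all of these scalings were 3 genes (Slc39a10, Atox1 and Cox19; background 17.4%), and called lower under all were 6 (Slc30a1, Slc30a5, Slc39a1, Slc39a6, Cutc and Sco1; background 37.0%). The 31 genes together held 0.159% to 0.164% of all counts with PBS and 0.105% to 0.113% with MoS2.

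**Figure D1:**
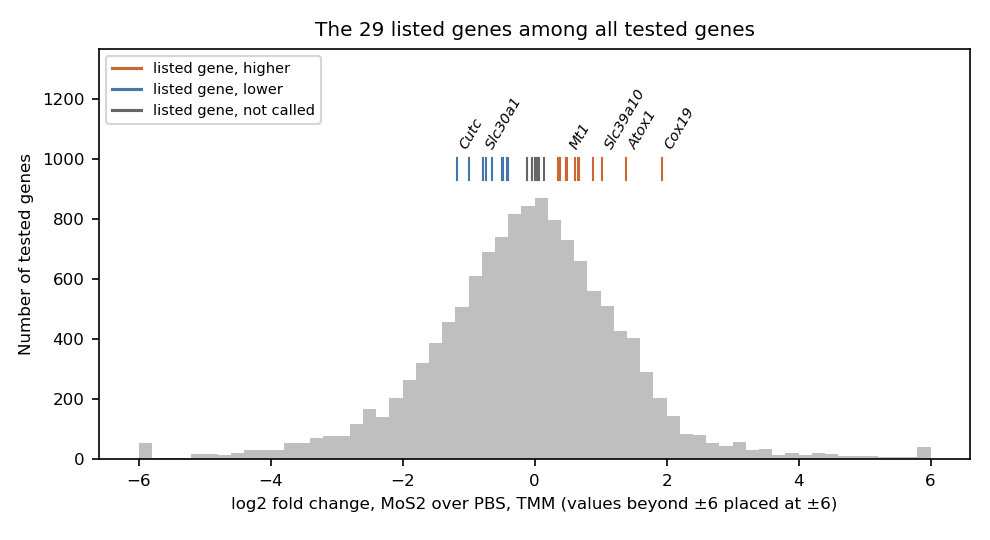
Histogram of the log2 fold change of all 12972 tested genes (MoS2 over PBS, TMM; the vertical axis counts genes), with a tick for each of the 29 tested metal genes, coloured by its call. The ticks lie between -1.18 (Cutc) and 1.93 (Cox19), within the bulk of the distribution.

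Most metallothionein counts came from Mt1, and its direction depended on the scaling. In TMM-scaled CPM, Mt1 (ENSMUSG00000031765.8, GRCm38 chromosome 8, 94179082 to 94180327) had 111, 120.4 and 96.7 in the 3 PBS libraries and 159.6, 148 and 156 in the 3 MoS2 libraries. Every MoS2 library lay above every PBS library on that scale. Its log2 fold change was 0.50 ± 0.08 (SE, edgeR adjusted p = 5.1e-05) with TMM, but -0.28 (adjusted p = 0.0051) with library totals and -0.037 (adjusted p = 0.617) without the length and GC trend. Mt1 is a short gene of 1246 bases, in the class that was higher with MoS2 in general. With TMM its change stood at percentile 68.1 among all tested genes.

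Mt2, which encodes the second widely expressed metallothionein, was lower than Mt1 per length (7.56 and 87.8 CPM per kilobase with PBS, 7.32 and 124 with MoS2) and varied between replicates. It had 183, 49 and 73 counts in the PBS libraries and 67, 31 and 69 in the MoS2 libraries, or 7.93, 2.13 and 3.28 CPM and 5.35, 2.51 and 5.05 CPM. PBS replicate 1 was the highest of the 6 and the groups overlapped. The log2 fold change was -0.044 ± 0.41 (edgeR adjusted p = 0.922), and 0.67 without PBS replicate 1 (adjusted p = 0.0526). Without the length and GC trend it was called lower, at -0.87 (adjusted p = 0.0443). Of the exon bases of Mt2, 73.5% are shared with the antisense gene Gm45774, so the value of Mt2 is uncertain.

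Mt3, known as the brain metallothionein, had no count in any of the 6 libraries. Against the 102840751 counts of the series, 0 allows a level of up to 0.0281 CPM (3 counts over all libraries, for counting error only). Mtf1, which encodes the metal-sensing transcription factor, had 22.5, 22.0 and 21.8 CPM with PBS and 35.7, 35.2 and 33.9 CPM with MoS2, with no overlap. The log2 fold change was 0.66 ± 0.08 (edgeR adjusted p = 4.3e-06) with TMM and 0.93 without the length and GC trend, but -0.11 with no call with library totals (adjusted p = 0.215). Replicates of Mtf1 lay close together, at an SD of 0.351 CPM with PBS and 0.943 CPM with MoS2. The opposite-strand gene 1110065P20Rik shares 8.09% of its exon bases.

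**Figure D2:**
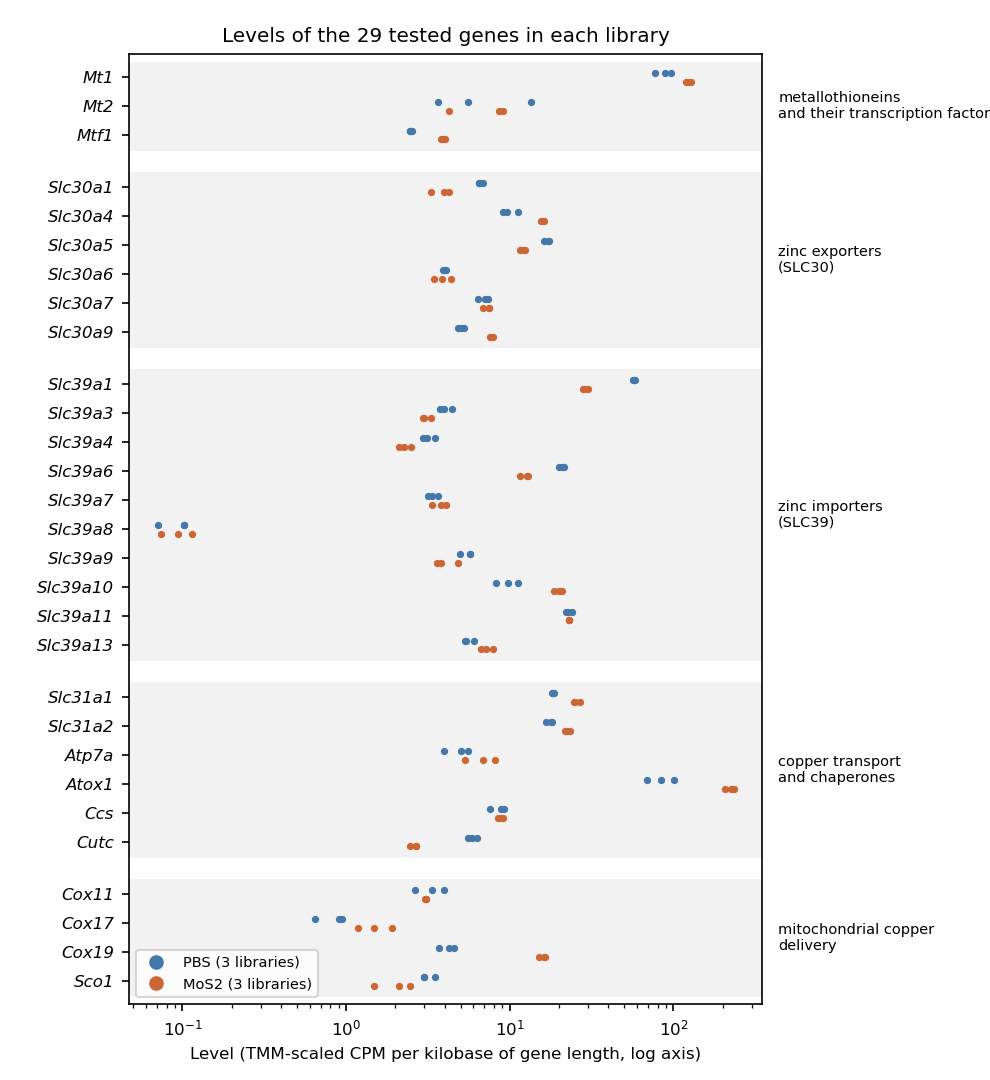
Level of each of the 29 tested genes in each library, as TMM-scaled CPM per kilobase of gene length on a log axis, in rows grouped by role (3 PBS and 3 MoS2 points a gene). Atox1 and Mt1 have the highest levels per length in both groups, and Slc39a8 the lowest.

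The zinc exporters moved in both directions, and Slc30a1 had the largest fall among them. Slc30a1 (ENSMUSG00000037434.7, GRCm38 chromosome 1, 191906767 to 191913247), which encodes the zinc exporter of the plasma membrane, had 35.7, 34.1 and 33.8 CPM with PBS and 17.4, 22.3 and 20.7 CPM with MoS2. The 2 groups lay apart, and the PBS libraries agreed closely. It fell by 0.78 ± 0.10 on the log2 scale (edgeR adjusted p = 5.6e-06), by 1.55 with library totals and by 0.66 without the length and GC trend. An antisense gene, 1700034H15Rik, shares 8.92% of its exon bases.

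Slc30a5, which loads zinc into the secretory pathway as a dimer with Slc30a6, fell from 123 ± 4.39 to 87.7 ± 3.56 CPM (SD, n = 3; log2 fold change -0.49 ± 0.06, edgeR adjusted p = 8.3e-06). Its partner Slc30a6 had 12.3 ± 0.227 and 12.0 ± 1.44 CPM and was not called (edgeR adjusted p = 0.769), but was called lower with library totals at -0.81. The Golgi exporter Slc30a7 was at 77.1 ± 5.44 and 80.6 ± 3.93 CPM and was not called either (edgeR adjusted p = 0.431), but was called lower with library totals at -0.71 and higher without the length and GC trend at 0.21. Slc30a4, a carrier of endosomes and vesicles, and Slc30a9, a mitochondrial zinc carrier, had log2 fold changes of 0.68 ± 0.08 and 0.62 ± 0.07 with TMM, called higher, but -0.098 (not called) and -0.16 (called lower) with library totals. With TMM, then, 2 of 6 exporters were higher, 2 lower and 2 not called.

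Among the zinc importers, Slc39a10 rose while Slc39a1 and Slc39a6 fell. Slc39a10 (ENSMUSG00000025986.6, GRCm38 chromosome 1, 46807544 to 46892852), a plasma membrane importer, had 50.6, 59.0 and 68.0 CPM with PBS and 122, 127 and 113 CPM with MoS2. All MoS2 libraries were above all PBS libraries. It rose by 1.03 ± 0.09 on the log2 scale (edgeR adjusted p = 2.1e-07), by 0.25 with library totals (adjusted p = 0.0309) and by 1.12 without the length and GC trend. Its change stood at percentile 80.9 of all tested genes.

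Slc39a1, a plasma membrane importer of most tissues, was the most abundant importer per length in both groups. It fell from 136 ± 1.82 to 68.2 ± 2.66 CPM, or from 57.5 to 28.9 CPM per kilobase, and its log2 fold change was -0.99 ± 0.06 (edgeR adjusted p = 4.1e-09). A processed pseudogene, Slc39a1-ps, matches its transcript over 973 bases at 97.7% identity and had 4 counts in all. Slc39a6, which forms a complex with Slc39a10, fell from 84.3 ± 2.64 to 50.4 ± 3.09 CPM (log2 fold change -0.74 ± 0.07, edgeR adjusted p = 3.3e-07). The known partners Slc39a6 and Slc39a10 thus had changes of opposite sign under each of the 3 scalings.

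Another 3 importers were called lower with TMM and with library totals, and none of them without the length and GC trend. Slc39a3, a plasma membrane importer, had a log2 fold change of -0.40 ± 0.12 with TMM and 0.043 without that trend. Slc39a4, the importer that takes up dietary zinc in the gut, had -0.48 ± 0.14 and -0.27, and Slc39a9, a carrier of the Golgi, -0.42 ± 0.11 and -0.19. Slc39a13, a carrier of the Golgi and vesicles, was called higher with TMM at 0.38 ± 0.09 but lower with library totals at -0.39. Slc39a11, an intracellular carrier, had 76.9 ± 3.86 and 77.3 ± 0.265 CPM and was not called with TMM (edgeR adjusted p = 0.924), was called lower with library totals at -0.77 and was called higher without the length and GC trend at 0.18.

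Slc39a7, which releases zinc from the endoplasmic reticulum, had 8.73 ± 0.608 and 9.67 ± 1.02 CPM and was not called (edgeR adjusted p = 0.326), but was called lower with library totals at -0.62. Its value is uncertain, since 80.7% of its exon bases are shared with Gm20427, a transcript on the same strand. Slc39a8, an importer of zinc and manganese known for induction by NF-kB, had 18, 18 and 12 counts with PBS and 9, 7 and 12 with MoS2. At 0.700 ± 0.140 and 0.721 ± 0.155 CPM it was the lowest of the tested genes per length, and the SE of its log2 fold change was 0.41.

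**Figure D3:**
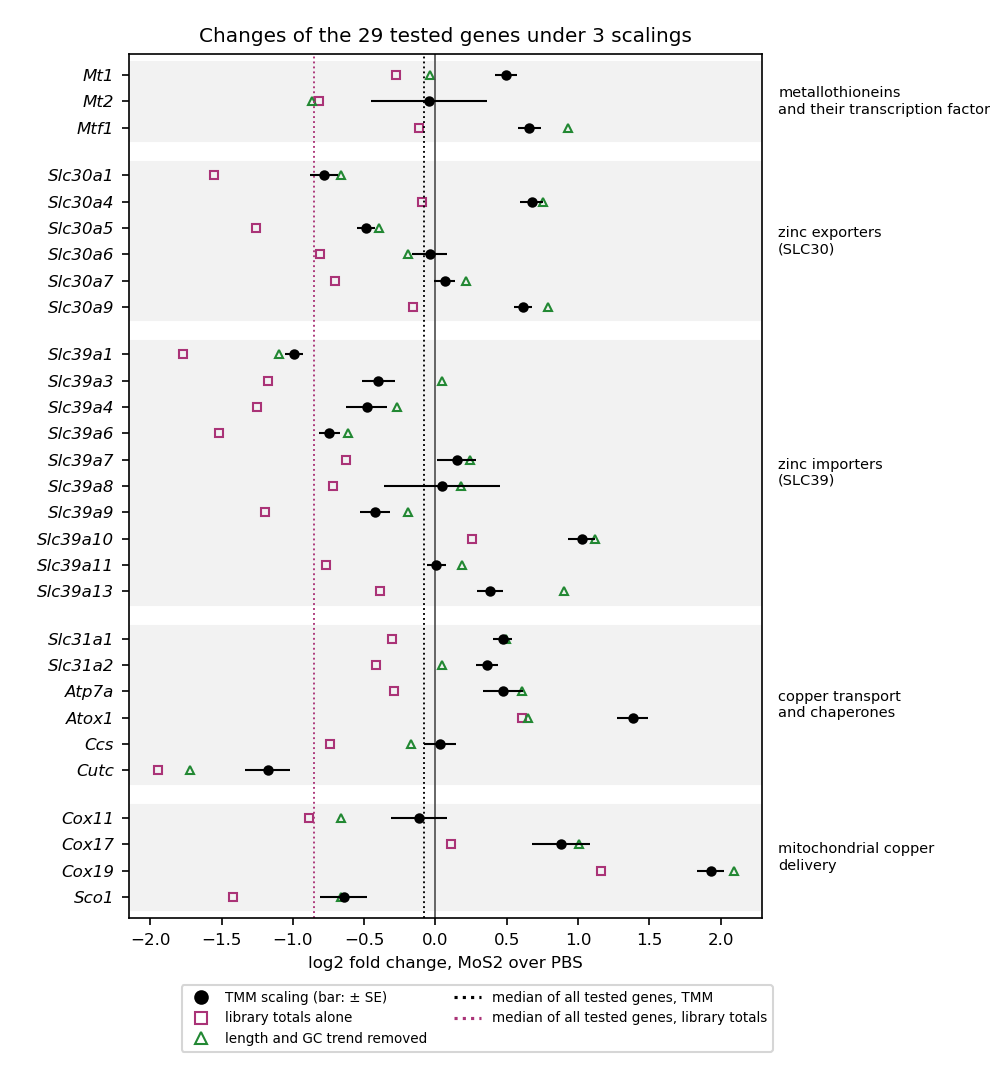
Log2 fold change (MoS2 over PBS) of each of the 29 tested genes with TMM scaling (points, bars show ± SE), with library totals alone (squares) and without the trend on length and GC content (triangles). Slc39a10, Atox1, Cox17 and Cox19 lie above 0 under all 3 and Mt2, Slc30a1, Slc30a5, Slc30a6, Slc39a1, Slc39a4, Slc39a6, Slc39a9, Cutc, Cox11 and Sco1 below 0, though Cox17, Mt2, Slc30a6, Slc39a4, Slc39a9 and Cox11 were not called under all 3; Mt1 changes sign.

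In copper handling, the chaperone Atox1 rose and Cutc fell. Atox1 (ENSMUSG00000018585.9, GRCm38 chromosome 11, 55446641 to 55461239), which carries copper to the pump ATP7A, had 45.6, 54.7 and 37.2 CPM with PBS and 121, 112 and 126 CPM with MoS2. The lowest MoS2 library was above the highest PBS library. It rose by 1.38 ± 0.11 on the log2 scale (edgeR adjusted p = 4.7e-08), and by 0.61 with library totals and 0.65 without the length and GC trend. At 541 bases it was the shortest of the 31 genes, and per length it was second to Mt1 with PBS (84.7 and 87.8 CPM per kilobase) and above it with MoS2 (221 and 124).

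Cutc (ENSMUSG00000025193.14, GRCm38 chromosome 19, 43752996 to 43768638), the mouse relative of a bacterial copper homeostasis gene, had 8.93, 7.95 and 8.31 CPM with PBS and 3.51, 3.81 and 3.80 CPM with MoS2. The groups did not overlap. It fell by 1.18 ± 0.16 on the log2 scale (edgeR adjusted p = 1.1e-05), by 1.95 with library totals and by 1.72 without the length and GC trend. Its gene lies beside Cox15, with which it shares 0.352% of its exon bases.

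The copper importer Slc31a1 had 78.8 ± 0.944 and 109 ± 4.97 CPM, and Slc31a2, an intracellular copper carrier related to it, 35.6 ± 1.72 and 45.6 ± 1.66 CPM. Both were called higher with TMM (log2 fold changes 0.47 ± 0.06 and 0.36 ± 0.08) and lower with library totals (-0.30 and -0.41). Without the length and GC trend Slc31a2 was not called, at 0.046. Atp7a, the copper pump of the Golgi and plasma membrane, had 34.6, 44.0 and 48.6 CPM with PBS and 59.5, 71.2 and 46.4 CPM with MoS2, so the groups overlapped. Its log2 fold change was 0.48 ± 0.14 (edgeR adjusted p = 0.0070) with TMM, 0.32 without MoS2 replicate 2 (adjusted p = 0.0515), and -0.29 with no call with library totals (adjusted p = 0.0893). Ccs, the chaperone that loads copper into superoxide dismutase, had 15.3 ± 1.54 and 15.6 ± 0.545 CPM and was not called (edgeR adjusted p = 0.804), but was called lower with library totals at -0.74.

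Of the genes that deliver copper to cytochrome c oxidase, Cox19 had the largest change of all 29 with TMM and without the length and GC trend, while with library totals Cutc had the largest (-1.95). Cox19 (ENSMUSG00000045438.12, GRCm38 chromosome 5, 139336189 to 139351418), a small protein of the mitochondrial intermembrane space needed for oxidase assembly, had 17.1, 15.9 and 13.8 CPM with PBS and 56.1, 61.3 and 60.9 CPM with MoS2. The groups were far apart. It rose by 1.93 ± 0.09 on the log2 scale (edgeR adjusted p = 2.6e-10), by 1.16 with library totals and by 2.09 without the length and GC trend, and stood at percentile 94.1 of all tested genes. No exon base of Cox19 is shared with another annotated gene.

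Cox17, which hands copper to Sco1 and Cox11, had 4.79 ± 0.928 and 8.81 ± 2.1 CPM (log2 fold change 0.88 ± 0.20, edgeR adjusted p = 0.0012), and 0.11 with no call with library totals. Sco1, which passes copper to an oxidase subunit, fell from 12.4 ± 1.08 to 7.91 ± 1.93 CPM (log2 fold change -0.64 ± 0.17, edgeR adjusted p = 0.0027). Cox11, which inserts copper into another subunit, had 4.73 ± 0.937 and 4.36 ± 0.0405 CPM and was not called (edgeR adjusted p = 0.598), but was called lower with library totals at -0.89 and without the length and GC trend at -0.66. Opposite-strand exons of Tom1l1 share 48.3% of its exon bases. Sco2, a relative of Sco1, had no count in any library, but 91.8% of its exon bases are shared with Ncaph2 and Tymp, so its 0 does not show that it was not expressed.

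Ratios of counts between genes of the same library need no scaling between libraries. The pairs were chosen with the values known, so they are given as a description, and since they are not corrected for length they compare libraries and not the levels of the genes in a pair. Slc39a10 had 1.42 to 2.01 times the counts of Slc30a1 with PBS and 5.45 to 7.03 times with MoS2. Relative to Slc39a1, Slc39a10 had a ratio of 0.366 to 0.501 in PBS libraries and of 1.58 to 1.87 in MoS2 libraries. Per length, Slc39a10 stayed below Slc39a1 in both groups (9.71 and 57.5 CPM per kilobase with PBS, 19.8 and 28.9 with MoS2). Mt1 had 2.86 to 3.53 times the counts of Slc30a1 with PBS and 6.63 to 9.17 times with MoS2. The trend with length does not cancel in such a ratio, since Mt1 has 1246 bases and Slc30a1 5244: without that trend their log2 fold changes were -0.037 and -0.66, closer together than the 0.50 and -0.78 with TMM. Cox19 had 1.16 to 1.45 times the counts of Sco1 with PBS and 6.30 to 10.5 times with MoS2.

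**Figure D4:**
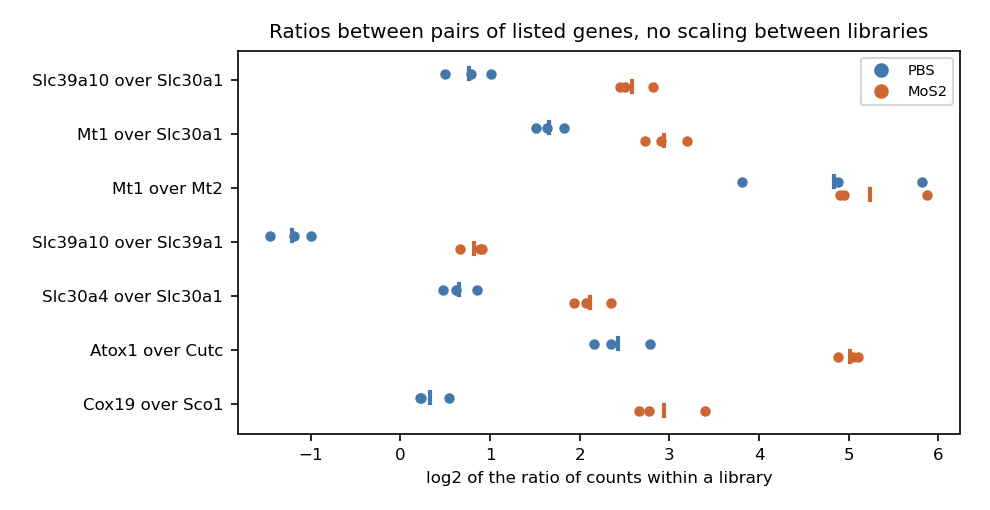
Log2 ratio of counts between 7 pairs of genes within each library (points; short bars are means of 3 libraries). The pairs were chosen with the values known, and the groups did not overlap for 81.9% of all single tested genes. That PBS and MoS2 libraries lie apart in 6 pairs is therefore a description only. They overlap for Mt1 over Mt2 (14.0 to 56.6 times the counts with PBS, 29.8 to 58.8 times with MoS2).

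Other genes of the pathways were taken from lists by function. With TMM, median log2 fold changes were -0.26 for other zinc transporters, 0.20 for other copper transport and reduction, 0.69 for other cytochrome oxidase assembly, -0.39 for copper and zinc enzymes, 0.76 for lipoylation and -0.20 for other genes linked to MTF1, beside -0.078 over all tested genes. With library totals, where the median of all tested genes was -0.85, the sign turned for copper transport and reduction (-0.57), oxidase assembly (-0.080) and lipoylation (-0.015). Without the length and GC trend, oxidase assembly was at 0.16 and the sign turned for other zinc transporters (0.10). The counts below stand beside shares over all tested genes of 38.3% called higher and 42.4% lower with TMM, 18.0% and 67.7% with library totals, and 40.2% and 40.1% without the trend. Of 8 other zinc transporters 3 were tested: the importer Slc39a2 rose from 2.28 ± 0.623 to 6.61 ± 1.47 CPM, and Slc39a5 fell from 0.643 ± 0.0895 to 0.204 ± 0.177 CPM. Slc39a14 was called lower at -0.26 with TMM, but without the length and GC trend its sign turned, to 0.10, and it was not called. It is the middle of the 3, so the sign change of that list is the change of this gene. Of 10 other genes of copper transport and reduction 6 were tested, with 3 higher (Commd1, Slc25a3 and Slc11a2) and 2 lower (Steap3 and Cp). Among them the metal ion transporter Slc11a2 rose from 95.8 ± 1.87 to 236 ± 1.01 CPM. The mitochondrial phosphate and copper carrier Slc25a3 was called higher at a log2 fold change of 0.83 ± 0.06 with TMM and was not called with library totals.

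All 14 further cytochrome oxidase assembly genes were tested, with 9 higher and 3 lower with TMM, 5 and 5 with library totals, and 7 and 3 without the length and GC trend. With TMM, log2 fold changes were 2.04 ± 0.10 for the assembly factor Cox14 and 1.57 ± 0.07 for Cox18. The 3 called lower were Coa7 (-2.92 ± 0.24, the largest change of this list), Cox15 (-1.01 ± 0.09) and Coa3 (-0.84 ± 0.11). Each of these 3 was also called lower with library totals and without the length and GC trend. Of 13 copper and zinc enzymes 9 were tested, with 4 higher and 5 lower. The zinc-dependent membrane proteases Adam10 and Adam17 fell from 200 ± 11.2 to 48.8 ± 1.74 CPM and from 338 ± 1.12 to 88.8 ± 6.40 CPM. Sod1, the copper and zinc superoxide dismutase that Ccs serves, named here for that tie after its values were seen, rose from 96.5 ± 9.17 to 213 ± 18.5 CPM.

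Genes of protein lipoylation, the mitochondrial process known as a target of copper toxicity, had 7 of 10 higher and 2 lower with TMM (38.3% and 42.4% of all tested genes), 3 and 3 with library totals (18.0% and 67.7%), and 7 and 2 without the length and GC trend (40.2% and 40.1%). Those called higher included Pdhb, a pyruvate dehydrogenase subunit (log2 fold change 1.11 ± 0.06), and Dld, the shared dihydrolipoamide dehydrogenase (0.94 ± 0.07). Lipt2 had the largest change of this list with TMM, a fall from 5.16 to 0.798 CPM (-2.67 ± 0.27). Lipt1 had -0.64 ± 0.24, and both Lipt genes were called lower under each of the 3 scalings. Of 6 other genes linked to MTF1, 5 were tested, with 2 higher and 3 lower. The plasminogen activator gene Plau rose from 206 ± 5.75 to 491 ± 11.4 CPM, and the myeloid transcription factor gene Cebpa fell from 31.5 ± 2.02 to 1.88 ± 0.328 CPM. Adjusted p-values (edgeR) of the genes named from these lists ran up to 0.036, that of Slc39a14. Slc39a14, Commd1, Steap3, Cp, Coa7, Cox15, Coa3, Lipt1 and Lipt2 were named after their values were seen.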

How the data were processed

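The submitters' processing notes name HISAT2 2.1.0, featureCounts 1.6.1, fastp 0.20.0 and the human build GRCh38. The deposited table holds raw counts per gene for mouse Ensembl identifiers, 54349 of 55401 with identical coordinates in GENCODE M21 (GRCm38), so GRCm38 coordinates are given. No source used here gives the strand setting, so reads of a gene and of an antisense neighbour cannot be told apart. Columns named M and c with a number were matched to the MoS2 and control titles.

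The test was edgeR 4.0.16 quasi-likelihood (R 4.3.3, limma 3.58.1) on the deposited counts of all 6 libraries, with group as the only term, TMM factors and edgeR's default filter (12972 genes kept, minimum count 10). P-values were adjusted over all genes by Benjamini-Hochberg. Log2 fold changes have a prior count of 0.125, and the SE is the absolute change over the square root of F. CPM and CPM per kilobase were computed with TMM factors and the deposited gene length. That length joins all annotated exons of a gene and may exceed its main transcript. For Mt1 (1246 bases) and Cox17 (5773 bases) it equals the whole span of the gene. Levels per length and the removal of the length trend are uncertain for such genes. The fit was first tested on simulated counts of 12972 genes, in which few genes were changed, some up and some down. It recovered 76 of 97 changes of 1.5-fold and 89 of 99 of 2-fold in the right direction, with 6 false calls. The simulation did not copy the many changed genes or the unlike TMM factors of the real libraries. It therefore does not test the choice of scaling. Copies were sought with BLAST in GENCODE transcripts (at least 150 bases at 95% identity). Besides Slc39a1, only Slc30a5 had matches, of 152 to 155 bases, in Gal3st3, Gm38319, Ilf2 and Mau2. Ilf2 had 7877 counts in all libraries, Mau2 5336 and Slc30a5 itself 11786.

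The 31 genes, the other lists and the rule for naming genes were chosen with earlier results of these data known. The rule named every listed gene, gave each library's value for Mt1, Mt2, Mt3, Mtf1, Slc30a1 and genes called at an absolute log2 change of 1 or more, and named up to 2 genes of each other list by adjusted p. The values in each library of Atp7a and Slc39a8 were added after they were seen. Alternatives were RLE factors, library totals, no filter, DESeq2 1.42.0, 1 CPM in at least 3 libraries, a replicate block, limma-voom, removal of the length and GC trend, and leaving out each library.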

Additional observations from a re-analysis of the deposited data

How the results depend on the processing

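Across the 14 alternatives, 12 listed genes were called higher and 9 lower in all but 3 of them. The numbers were 3 and 20 with library totals, 12 and 8 without the length and GC trend, and 11 and 9 without MoS2 replicate 2. Leaving out 1 library at a time gave 11 to 12 higher and 9 lower. With library totals the sign turned for Mt1 (-0.28), Mtf1 (-0.11), Slc30a4 (-0.098), Slc30a7 (-0.71), Slc30a9 (-0.16), Slc39a7 (-0.62), Slc39a8 (-0.72), Slc39a11 (-0.77), Slc39a13 (-0.39), Slc31a1 (-0.30), Slc31a2 (-0.41), Atp7a (-0.29) and Ccs (-0.74), a scaling that shifts all tested genes by a median of -0.77. Without the length and GC trend it turned for Mt1 (-0.037), Slc39a3 (0.043) and Ccs (-0.17). Among genes not called with TMM, values near 0 turned without the filter for Slc30a7 (-0.016), Slc39a8 (-0.035), Slc39a11 (-0.073) and Ccs (-0.049), for Slc30a6 with RLE factors (0.0011) and DESeq2 (0.0015), and for Mt2 with limma-voom (0.11). Leaving out libraries gave ranges of -0.39 to 0.67 for Mt2, -0.13 to 0.051 for Slc30a6, -0.12 to 0.19 for Slc39a8, -0.039 to 0.046 for Slc39a11, -0.065 to 0.079 for Ccs and -0.26 to 0.024 for Cox11. The cause was not tested.

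Replicate numbers are shared between the groups, but same-numbered libraries did not deviate together (r of -0.14 to -0.01 across genes). With the replicate block as a term, 12 and 9 listed genes were called, the log2 fold change of Mt2 was 0.056, and 10203 genes were called in all against 10466 without the block. With 3 libraries a group, Slc39a8 (48 counts with PBS and 28 with MoS2) and Mt2 (183, 49 and 73 counts with PBS) had an SE of 0.41, so their changes are known with little precision.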
